A study of Mus musculus with 107 samples.

Results

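The epidermal differentiation complex is a cluster of genes on mouse chromosome 3 whose products build the cornified envelope, the crosslinked protein shell of dead surface keratinocytes. The genes studied here were those with a symbol starting with Lce, Sprr or S100a, apart from S100a8 and S100a9, with Flg, Flg2, Hrnr, Rptn, Crnn, Ivl, Lor, Tgm1, Tgm3 and Casp14 added by name. Each was read from its probe set with the highest mean signal among those with a single gene symbol. By this rule 42 of the 18194 genes with such a probe set were members, 39 of them on chromosome 3, while Tgm3 (chromosome 2), Casp14 (chromosome 10) and Tgm1 (chromosome 14) lie elsewhere. Of the 62 genes of the rule in RefSeq, 20 were not analysed here, among them Crnn, Flg2, S100a11 and Sprr2a1, either because no probe set was listed for them or because theirs was listed for several genes. The members were 15 late cornified envelope genes (11 Lce1 and 4 Lce3), 9 small proline-rich genes (Sprr), 10 S100a genes, 3 genes of the filaggrin family (Flg, Hrnr and Rptn) and 5 envelope precursors and enzymes (Lor, Ivl, Tgm1, Tgm3 and Casp14).

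RNA was measured in biopsies of mouse ear skin taken 24 h after exposure, on a pair of Affymetrix arrays called array A and array B. The right ear had received sulfur mustard, a blistering agent that alkylates DNA and protein, at 0.08 mg in methylene chloride, with methylene chloride alone on left ears. The groups on both arrays were 21 methylene chloride ears, 5 mustard ears, and mustard ears pretreated 15 min earlier with a drug in ethanol, namely 6.25 mg of dimercaprol (6 ears), 1.34 mg of indomethacin (6 ears) or 0.6 mg of octylhomovanillamide (5 ears). Of these, indomethacin blocks cyclooxygenases, octylhomovanillamide is related to capsaicin, and dimercaprol carries a pair of thiol groups. Array A also held separately numbered animals without mustard, namely 3 ears with ethanol, 4 with indomethacin, 4 with dimercaprol, 5 with octylhomovanillamide and 5 naive ears from 3 mice. The labels give no strain, sex, age or batch and do not say whether RNA was pooled, and the mustard ears are labelled without ethanol, so a drug and its ethanol cannot be told apart in the pretreated groups.

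In healthy epidermis, basal keratinocytes divide, move outward and switch on envelope genes as they die and flatten. Transglutaminases crosslink loricrin, involucrin, the small proline-rich proteins and the late envelope proteins into the envelope, while filaggrin bundles keratin and is broken down to small molecules that hold water in the skin surface. Lce1 genes, Flg and Lor are known as genes of undisturbed epidermis, and Sprr2, Sprr1b and Lce3 genes as genes that wounded or inflamed epidermis turns on. S100a genes encode small calcium-binding proteins, of which S100a3 is known from the hair cuticle.

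All values are signals scaled to a trimmed mean of 500 on each array, and log2 differences are of that signal plus 16, which understates changes of dim genes. A gene was called at an adjusted p under 0.05 (limma, Benjamini-Hochberg over all probe sets of its array). Trimmed means before scaling differed 4.01-fold across the 64 A arrays and 2.77-fold across the 43 B arrays. The mustard ears were dimmer than the methylene chloride ears, with medians of 117 and 174 on array A and 23.5 and 38.6 on array B. After scaling, the median log2 difference of all probe sets with mustard was 0.02 on array A and 0.16 on array B, from which 9 members were read. The mustard ears of animals 5 and 37 stood apart in the Gapdh signal at the 3' end over that at the 5' end, a sign of RNA quality. The mustard ear of animal 36 was the lowest of the 5 mustard ears for all 14 genes of the Sprr, Lce3 and Rptn set, and its effect on the calls is given with the results. Keratinocyte markers were present at a summed signal of 80983 to 130593 in all ears of the mustard series, but single markers moved both ways. Of 10, 3 were called higher and 3 lower with mustard. Against mustard alone, 3 were higher and 3 lower with dimercaprol, and 2 higher and 1 lower with octylhomovanillamide. For all marker counts here, the shares of all probe sets called stand with the results below. Neutrophil markers rose with mustard, with 4 of 8 called higher, and 3 of these 8 were lower with dimercaprol and 3 with octylhomovanillamide than with mustard alone. Their summed signal was 543 to 1046 in methylene chloride ears and 1046 to 3268 in mustard ears. Macrophage markers moved likewise, with 3 of 8 higher with mustard and then 3 lower with dimercaprol and 2 with octylhomovanillamide. Of the 4 Langerhans cell markers, 3 were called lower with mustard. The part of these other cells in the members' changes was not tested. In whole skin, fewer cells of a type and less RNA per cell cannot be told apart.

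The promoters of 5 members are shown here as examples from the groups that moved most with mustard, 3 of the small proline-rich genes and Lce3a upward and Lce1m downward. These are not the 5 members with the largest changes. Sprr1b and Sprr2h, not shown, rose by 4.50 and 4.19 on the log2 scale with mustard, and Sprr1a by 2.42. The windows run from 250 bases before to 50 after the RefSeq start (GRCm38.p6), 5′ to 3′ on the strand of the gene. Capitals mark TGACTCA, the letters bound by AP-1 factors, searched on both strands so that TGAGTCA is its reverse form, and TATAAA, the TATA box, also on both strands.
Sprr2f, chr3:92364937-92365236, plus strand: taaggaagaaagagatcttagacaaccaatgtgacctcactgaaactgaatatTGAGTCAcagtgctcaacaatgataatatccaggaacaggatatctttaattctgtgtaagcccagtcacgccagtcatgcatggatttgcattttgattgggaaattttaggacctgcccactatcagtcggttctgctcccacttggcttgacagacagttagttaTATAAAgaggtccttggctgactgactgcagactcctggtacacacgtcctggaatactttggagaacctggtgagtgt
Sprr2i, chr3:92407741-92408040, plus strand: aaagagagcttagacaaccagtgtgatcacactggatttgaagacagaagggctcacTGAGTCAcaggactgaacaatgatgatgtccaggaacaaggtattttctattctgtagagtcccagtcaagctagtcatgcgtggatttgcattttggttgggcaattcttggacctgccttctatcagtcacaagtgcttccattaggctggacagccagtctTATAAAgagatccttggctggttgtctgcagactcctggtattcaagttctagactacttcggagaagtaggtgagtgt
Sprr1a, chr3:92485832-92486131, minus strand: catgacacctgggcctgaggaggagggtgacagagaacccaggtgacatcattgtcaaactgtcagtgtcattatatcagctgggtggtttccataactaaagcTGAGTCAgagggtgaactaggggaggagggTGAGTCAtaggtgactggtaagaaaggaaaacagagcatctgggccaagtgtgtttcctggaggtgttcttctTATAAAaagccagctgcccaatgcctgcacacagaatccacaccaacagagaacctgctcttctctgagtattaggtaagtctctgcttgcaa
Lce3a, chr3:92926181-92926480, minus strand: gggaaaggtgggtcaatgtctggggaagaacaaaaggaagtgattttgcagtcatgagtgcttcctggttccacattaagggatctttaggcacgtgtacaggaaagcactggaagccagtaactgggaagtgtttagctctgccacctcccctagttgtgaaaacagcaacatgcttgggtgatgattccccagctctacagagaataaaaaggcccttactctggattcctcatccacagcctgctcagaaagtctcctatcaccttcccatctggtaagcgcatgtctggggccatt
Lce1m, chr3:93019012-93019311, minus strand: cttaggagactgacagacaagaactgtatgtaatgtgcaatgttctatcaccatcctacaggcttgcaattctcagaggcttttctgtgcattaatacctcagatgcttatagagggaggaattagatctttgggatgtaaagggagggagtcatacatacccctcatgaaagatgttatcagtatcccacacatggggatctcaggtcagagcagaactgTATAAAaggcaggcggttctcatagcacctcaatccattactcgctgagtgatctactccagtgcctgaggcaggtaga
A promoter was matched for 38 of the 42 members. TGACTCA stood in 6 of the 13 Sprr, Lce3 and Rptn promoters, in none (0) of 10 Lce1 promoters and in 5.95% of the 27025 genes whose promoters were counted. The 6 were Sprr1a, Sprr2d, Sprr2f, Sprr2h, Sprr2i and Sprr2k, and in the 5 Sprr2 promoters a match began 193 to 198 bases before the start, with another at 182 in Sprr2k. The Lce3a window held neither motif, and the Sprr1b window, not shown, held TATAAA but not TGACTCA. Ivl, Lor and S100a7l2 were the other members with a match. TATAAA stood in 9 of the 13 Sprr, Lce3 and Rptn promoters, in 2 of the 10 Lce1 promoters and in 15.7% of all. The Sprr, Lce3 and Rptn set joins members that rose with mustard in these same data, and its share was not tested. Sprr2 genes are near copies of each other, so their matches are not independent. A match describes the letters only, and its absence says only that they are not in this window.

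Mustard against methylene chloride asks which envelope genes the blistering agent changed. It changed 34 of the 42 members, 21 upward and 13 downward, against 26.9% of all probe sets of both arrays (13.3% higher and 13.6% lower). All 9 small proline-rich genes, all 4 Lce3 genes and Rptn rose, while 10 of 11 Lce1 genes, Flg, Hrnr and Ivl fell. The median log2 difference of the members was 0.41, beside 0.08 over all probe sets. Without rescaling of the arrays the split was 13 higher and 18 lower, with the median of all probe sets at -0.25, against 36.3% of all probe sets called. Without the mustard ears of animals 5 and 37 it was 19 higher and 7 lower, against 12.5% of all, and the 8 calls lost were those of Casp14, Hrnr, Ivl, Lce1a1, Lce1c, Lce1g, Lce1i and S100a16. Without animal 36 it was 23 and 12, against 30.3%, with Lce1a1 lost and Lce1f and S100a7l2 gained.

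**Figure D1:**
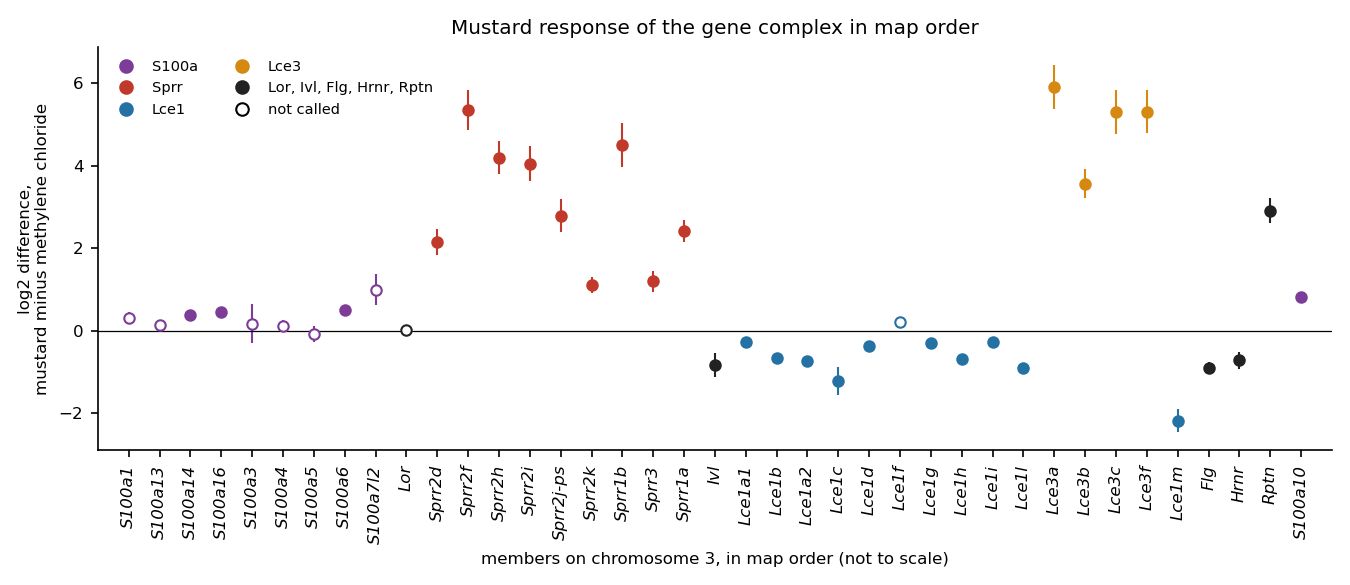
Log2 difference between mustard and methylene chloride ears (vertical axis, with standard error) for the 39 members on chromosome 3 in map order, coloured by family, with open circles for genes not called. The Sprr block and the Lce3 block lie above 0 and the Lce1 genes, apart from Lce1f, below it; the S100a1, S100a3, S100a4, S100a6, S100a13, S100a14, S100a16, Lor and Lce1f differences are below 0 without rescaling.

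The small proline-rich proteins are short, proline-rich bridges that transglutaminases link into the envelope. Sprr2f had the largest rise among them. Its signal was 3894, 5156, 4535, 429 and 5839 in the mustard ears of animals 1, 3, 5, 36 and 37, against a lowest of 25.3, a median of 59.0 and a highest of 237 in the 21 methylene chloride ears. Every mustard ear lay above every methylene chloride ear, and the ear of animal 36 was far below the others. The log2 difference was 5.34 ± 0.49 (SE), or 40.6-fold, with an adjusted p of 6.01e-11 (limma), and 6.03 without animal 36.

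Sprr1b had signals of 13490, 11762, 12356, 2626 and 12381 in the mustard ears in the same order, with 68.9, 618 and 1521 as lowest, median and highest in methylene chloride ears. Those groups did not overlap, although the methylene chloride ears themselves spanned 22.1-fold. Sprr1b rose by 4.50 ± 0.53 on the log2 scale, or 22.7-fold (adjusted p = 1.45e-08, limma). Sprr2h has a probe set with the suffix s, which marks probes shared by related transcripts. It was at 8776, 10062, 9034, 1556 and 10377 with mustard and at 148 to 959 in methylene chloride ears. It rose by 4.19 ± 0.40 (adjusted p = 1.06e-10, limma). Sprr2i rose by 4.04, the pseudogene Sprr2j-ps by 2.79, Sprr1a by 2.42, Sprr2d by 2.14, Sprr3 by 1.20 and Sprr2k by 1.11 on the log2 scale. Without rescaling Sprr3 was at 0.47 and Sprr2k, at 0.45 (adjusted p = 0.0553, limma), was not called. Sprr2 genes are near copies of each other, so the share of each in its probe set's signal is uncertain.

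The late envelope genes split by subfamily. Lce3a was at 5364, 8413, 6567, 325 and 5585 in the mustard ears, and at 14.5, 42.5 and 147 as lowest, median and highest in methylene chloride ears. No mustard ear reached down to the methylene chloride ears, and again animal 36 was lowest. Lce3a rose by 5.90 ± 0.53, or 59.5-fold (adjusted p = 3.00e-11, limma), and by 6.74 without animal 36. Its methylene chloride level was low enough for the size to depend on the value added before log2: with 64 in place of 16, Lce3a was at 5.06 and Lce3f at 5.19. Lce3f was at 22890, 39432, 46653, 5928 and 62438 with mustard and at 115 to 2418 in methylene chloride ears, a rise of 5.30 ± 0.52 (adjusted p = 7.02e-10, limma). Lce3c was at 15459, 19645, 18973, 1436 and 25333 against 59.0 to 641, a rise of 5.29 ± 0.53, and Lce3b rose by 3.56 (the probe sets of Lce3b and Lce3c carry the suffix x, for probes that can bind related transcripts). The groups did not overlap for any of the 4 genes.

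The Lce1 genes moved the other way and by less. Lce1m, at the far end of the cluster from the other Lce1 genes, was at 8752, 5933, 3932, 15856 and 1081 in the mustard ears of animals 1, 3, 5, 36 and 37. In methylene chloride ears its lowest, median and highest were 14052, 24215 and 29030. The ears of animals 1, 3, 5 and 37 lay below every methylene chloride ear and that of animal 36 within their range. Lce1m fell by 2.17 on the log2 scale, with an SE of 0.28 and an adjusted p of 8.64e-08 (limma). The difference was -1.30 without the ears of animals 5 and 37 and -2.58 without that of animal 36. Lce1c fell by 1.21 (-0.66 and not called without animals 5 and 37), Lce1l by 0.91 and Lce1a2 by 0.74, and the other 6 called Lce1 genes fell by 0.28 to 0.68. Lce1f alone of the 11 had a higher value (0.21, adjusted p = 0.0534 by limma, not called). It was called at 0.25 without animal 36 (adjusted p = 0.0248) and at -0.43 without rescaling, and its other probe set had a log2 difference of -0.26. Lce1 genes share sequence. Of their 11 probe sets 4 carry the suffix x, and that of Lce1m carries the suffix s, so its signal too may include related transcripts.

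**Figure D2:**
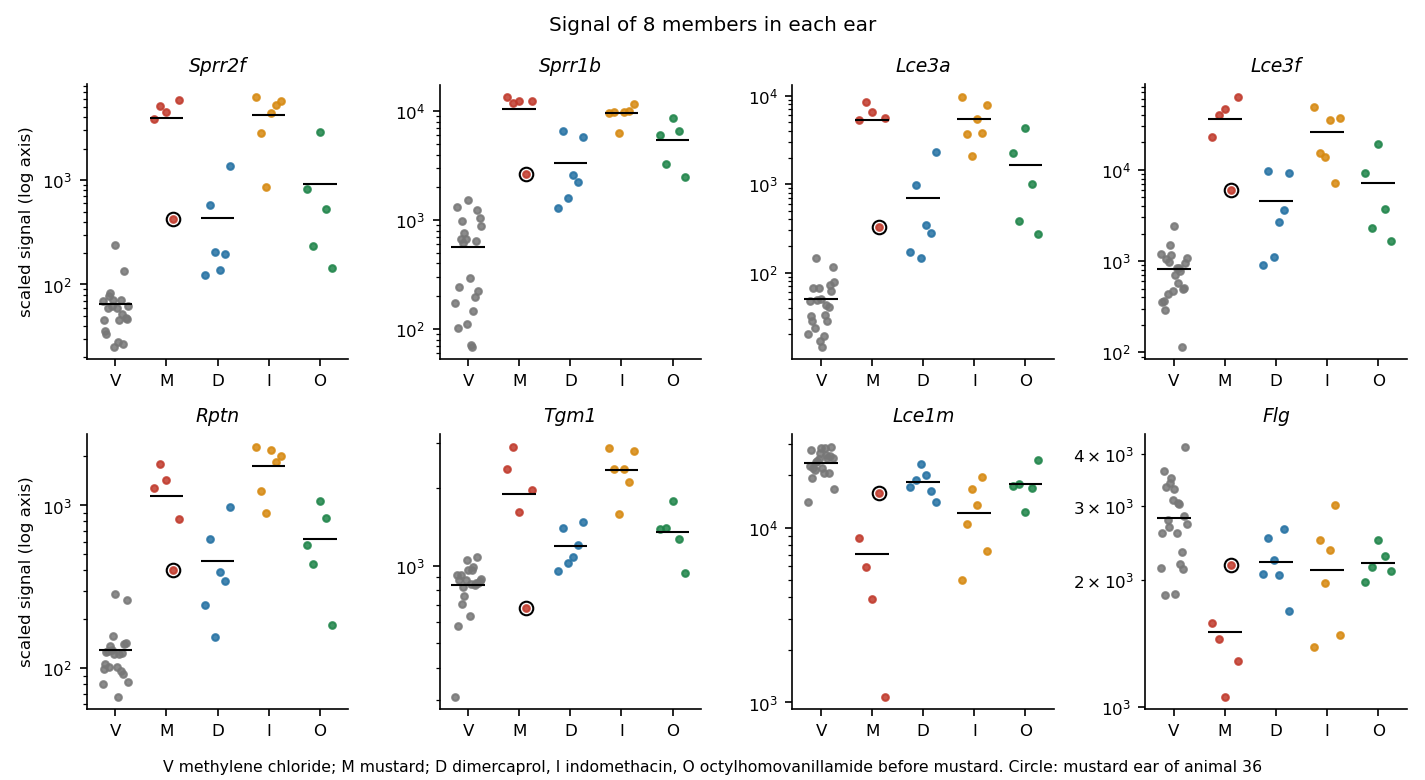
Scaled signal (log axis) of 8 members in every ear of the 5 groups on both arrays, 1 point an ear, with the group mean as a line and a circle round the mustard ear of animal 36. Sprr2f, Sprr1b, Lce3a, Lce3f and Rptn are higher in every mustard ear than in any methylene chloride ear; the pretreated groups differ among themselves.

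In the filaggrin family the precursors of the granular layer fell and repetin rose. Flg, which encodes profilaggrin, was at 1581, 1453, 1059, 2174 and 1284 in the mustard ears, and at 1849, 2779 and 4158 as lowest, median and highest in methylene chloride ears. Only the mustard ear of animal 36 lay inside the methylene chloride range. Flg fell by 0.90 on the log2 scale (SE 0.15, adjusted p = 9.55e-06 by limma). Hrnr, encoding hornerin, was at 3537, 3827, 2116, 3014 and 1946 against 2581 to 8095, with overlapping groups, and fell by 0.72 (adjusted p = 0.0074, limma). Without animals 5 and 37 Hrnr was at -0.41 (adjusted p = 0.306) and was not called. Rptn, encoding repetin, was at 1273, 1799, 1430, 401 and 824 against 67.1 to 285 and rose by 2.91 ± 0.31 (adjusted p = 1.04e-09, limma). The 2 other Rptn probe sets, with mean signals of 159 and 99.0, had log2 differences of 0.03 and 0.26 and were not called.

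Among precursors and enzymes, both transglutaminase genes rose. Tgm1, the membrane-bound transglutaminase of the envelope, was at 2371, 2898, 1612, 682 and 1966 in the mustard ears and at 309, 871 and 1081 as lowest, median and highest in methylene chloride ears. All mustard ears but that of animal 36 lay above the methylene chloride ears, and Tgm1 rose by 1.06 ± 0.20 (adjusted p = 4.17e-05, limma). Tgm3, a soluble transglutaminase of the upper epidermis and hair, was at 14736, 16020, 12971, 6957 and 9141 against 2861 to 8875, and it rose by 0.91 ± 0.19 (adjusted p = 0.00041, limma) with 0.89 at its array A probe set. Without rescaling neither was called (0.42 for Tgm1 and 0.36 for Tgm3). Involucrin, an early envelope scaffold, was at 2373, 2564, 1601, 2889 and 608 against 1273 to 8038. The Ivl groups overlapped, and Ivl fell by 0.83 (adjusted p = 0.0360, limma), a call lost when the Gapdh ratio entered the fit (-0.18) and without animals 5 and 37 (-0.27).

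Loricrin (Lor), the main envelope protein of mouse skin, was at 22314, 21402, 20100, 19909 and 19827 in mustard ears and at 16545, 20753 and 24258 as lowest, median and highest in methylene chloride ears. Every mustard ear lay within the methylene chloride range, with a log2 difference of 0.02 ± 0.10 (adjusted p = 0.912, limma, not called). This depended on the scaling: Lor was called lower without rescaling (-0.61, adjusted p = 0.000248) and with quantile normalization (-0.32, adjusted p = 0.000689). As deposited, its mean signal was 4488 in mustard and 6664 in methylene chloride ears, while the highest signal on any A array was 5824 to 9484, so this probe set lay near the top of the range of the arrays. Its 2 other probe sets had log2 differences of 0.20 and 0.26. Casp14, the protease that helps break down filaggrin, had a called difference of 0.45 (adjusted p = 0.0143, limma) that turned to -0.081 without rescaling and was 0.16 and not called at its array A probe set.

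Of the 10 S100a genes 4 were called, S100a10, S100a6, S100a16 and S100a14, all higher. S100a10, a partner of annexin A2, was at 7667, 7284, 9227, 4916 and 7828 in the mustard ears and at 3268, 4142 and 4981 as lowest, median and highest in methylene chloride ears. Only animal 36 overlapped, and S100a10 rose by 0.82 ± 0.12 (adjusted p = 8.62e-07, limma), with 0.70 and 0.73 at its other probe sets, but it was not called without rescaling (0.18). S100a6 had a called difference of 0.51, S100a16 of 0.45 and S100a14 of 0.38, and without rescaling these turned to -0.13, -0.090 and -0.25. S100a7l2 had the largest S100a value, 1.00 ± 0.38, but was not called (adjusted p = 0.0553, limma); without animal 36 it was called at 1.12 (adjusted p = 0.0458). Its mustard ears, at 648, 448, 702, 336 and 351, overlapped the methylene chloride ears at 27.8 to 509. S100a1, S100a3, S100a4, S100a5 and S100a13 were not called, and without rescaling S100a4, S100a5 and S100a13 were called lower.

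By ear, 9 of the 42 members had every mustard ear above the highest methylene chloride ear, against 1.13% of all probe sets, namely the 4 Lce3 genes, Rptn, Sprr1b, Sprr2f, Sprr2h and Sprr2i. No (0) member had every mustard ear below the lowest methylene chloride ear, against 1.04%. Without the ear of animal 36, 18 members lay wholly above (3.38% of all) and 4 wholly below (4.31%), the 4 being Flg, Lce1a2, Lce1l and Lce1m.

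The neighbours of these genes in the pathway were read from lists, to be set against the 13.3% of all probe sets called higher and 13.6% called lower with mustard. Of 5 activated keratins, 4 rose with mustard and none (0) fell, led by Krt6b (log2 difference 6.43, adjusted p = 1.06e-10 by limma) and Krt16 (5.64). Of 13 envelope partners, 4 rose and 2 fell; Cnfn, a cornified envelope protein, rose by 1.53, and Ppl, a plakin that anchors keratin to the envelope, fell by 0.87. Of 11 genes that process filaggrin 2 rose and 2 fell, with the protease St14 up by 0.74 and the protease Prss8 down by 0.80 (limma). Of 23 regulators 5 rose and 12 fell, with the AP-1 genes Fosl1 (2.42) and Junb (1.33) up and Gata3 (-1.36), Rora (-1.28), Grhl1 (-0.95) and Trp63 (-0.90) down. Barrier lipid genes were split, 3 up and 3 down of 12, and of 5 suprabasal keratins 2 rose and 1 fell. The median log2 differences of these lists were 3.45, 0.20, -0.01, -0.39, 0.05 and 0.22 in that order.

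The pretreated groups were compared with mustard alone to ask what each drug changed. The 3 comparisons share the 5 mustard ears. Dimercaprol changed 20 of 42 members, 6 higher and 14 lower, against 16% of all probe sets (8.85% higher and 7.15% lower). The 14 lower ones were 6 Sprr genes, the 4 Lce3 genes, Rptn, S100a10, S100a6 and S100a14, of which the last 3 turned positive without rescaling (Rptn, Sprr1a and Sprr2d kept their sign and were not called). The 6 higher ones were Lce1m, Lce1l, Lce1a2, Lce1h, Flg and Ivl. Octylhomovanillamide changed 17 members, 7 higher and 10 lower, against 9.51% of all (5.78% higher and 3.73% lower). Indomethacin changed none (0) by limma, against 1.41% of all, with 11 members at an unadjusted p under 0.05 (share of all not computed).

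Those counts depended on the mustard ears. Without animal 36 dimercaprol changed 28 members (21% of all probe sets), octylhomovanillamide 26 (15.4%) and indomethacin 5 (5.17%), the last being Lce1m, Lce1l, Lce1a2, Lce1h and Ivl. Without animal 37 dimercaprol changed 14 (9.86% of all) and octylhomovanillamide 6 (4.05%). Without both animals 5 and 37 dimercaprol changed 6, all lower (4.18%), and octylhomovanillamide 0 (0.314%). With array brightness as a covariate both counts were 0, against 1.32% and 0.0552% of all. Without rescaling the splits were 21 higher and 8 lower for dimercaprol (41.4% of all called), 16 and 3 for octylhomovanillamide (33.4%), and 18 and 0 for indomethacin (14.7%). With quantile normalization they were 11 and 14 for dimercaprol (14.9%) and 10 and 9 for octylhomovanillamide (9.09%).

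Sprr2f showed the drug differences ear by ear. In the dimercaprol ears of animals 6, 8, 9, 10, 11 and 12 it was at a lowest of 123, a median of 202 and a highest of 1379. In the octylhomovanillamide ears of animals 27, 28, 29, 30 and 33 it was at 819, 232, 2919, 527 and 144, and in the 6 indomethacin ears at 864, 4844 and 6274 as lowest, median and highest. The indomethacin ears ran through the range of the mustard ears, while the dimercaprol ears reached from inside the methylene chloride range to above the mustard ear of animal 36. Against mustard alone Sprr2f fell by 3.28 with dimercaprol (SE 0.60, adjusted p = 0.000155 by limma) and fell by 2.43 with octylhomovanillamide (SE 0.63, adjusted p = 0.00956), and had a value of 0.26 ± 0.60 with indomethacin (adjusted p = 0.870).

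Lce3a had 146, 312 and 2319 as lowest, median and highest of the dimercaprol ears and 2057, 4658 and 9685 of the indomethacin ears. With octylhomovanillamide it was at 2275, 382, 4276, 1016 and 274. Dimercaprol and indomethacin ears overlapped only between 2057 and 2319. Lce3a fell by 3.01 with dimercaprol (adjusted p = 0.000805, limma), and its difference of -1.79 with octylhomovanillamide was not called (adjusted p = 0.0751), but was called at -2.63 without the mustard ear of animal 36 (adjusted p = 0.00173). Lce1m, which mustard lowered, was at 14010, 17908 and 23114 as lowest, median and highest of the dimercaprol ears and rose by 1.81 against mustard alone (adjusted p = 0.000237, limma), while with octylhomovanillamide it rose by 1.75 (adjusted p = 0.00161). With indomethacin its ears were at 4998 to 19454 and the difference of 1.09 was not called (adjusted p = 0.0734, limma), but was called at 1.5 without that ear (adjusted p = 0.0032).

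**Figure D3:**
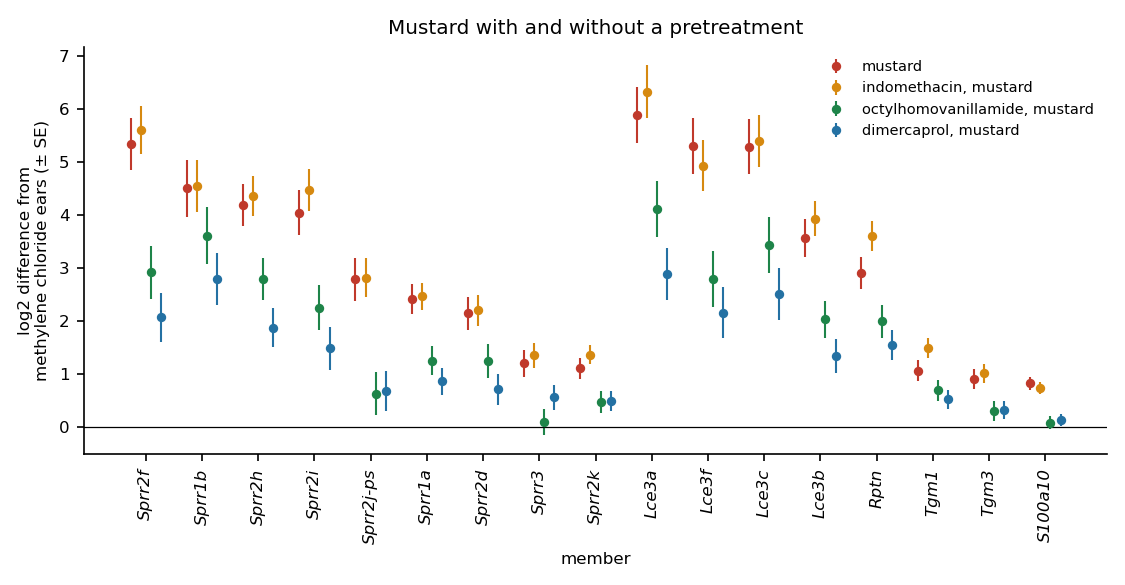
Log2 difference from methylene chloride ears with its standard error (vertical axis) for the 9 Sprr and 4 Lce3 genes, Rptn, Tgm1, Tgm3 and S100a10, in mustard ears and in ears pretreated with each drug. Values with indomethacin lie near those of mustard alone, at 6.33 for Lce3a against 5.90, and those with dimercaprol are the lowest for most genes, at 2.89 for Lce3a.

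Against methylene chloride the pretreated groups show what remained. With dimercaprol 10 members were called, 9 higher and 1 lower, against 1.14% of all probe sets (0.687% higher and 0.448% lower). The 9 higher ones were the 4 Lce3 genes, Rptn, Sprr1b, Sprr2f, Sprr2h and Sprr2i, and the lower one was Lce1i. Without the dimercaprol ear of animal 12 there were 5 called members, and the share of all probe sets was not computed for that fit. With octylhomovanillamide 11 were called, all higher, against 1.05% (0.685% higher and 0.367% lower), the same 9 genes with Sprr1a and Sprr2d. With indomethacin 26 were called, 20 higher and 6 lower, against 17.9% (8.08% higher and 9.82% lower), among them all 9 Sprr genes, the 4 Lce3 genes, Rptn, Tgm1, Tgm3, 4 S100a genes, and Flg and 5 Lce1 genes downward. Without rescaling this split was 19 higher and 1 lower, against 8.38% of all probe sets called. S100a7l2 was called in this comparison, with a log2 difference of 1.15 (adjusted p = 0.0278, limma). Sprr1b was still up by 2.79 with dimercaprol (adjusted p = 0.000488), 3.61 with octylhomovanillamide (adjusted p = 1.91e-05) and 4.54 with indomethacin (adjusted p = 2.73e-09, all limma).

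**Figure D4:**
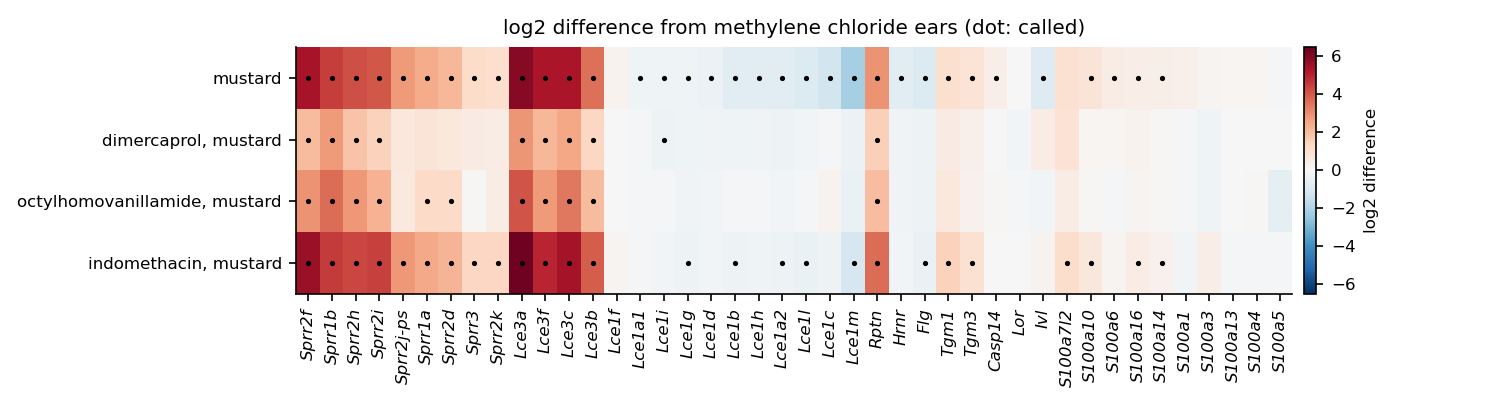
Log2 difference from methylene chloride ears (colour) for the 42 members (columns, by family) in the 4 groups with mustard (rows), with a dot where the gene was called. The 9 Sprr columns carry 9 dots with mustard alone and with indomethacin, 4 with dimercaprol and 6 with octylhomovanillamide, the 4 Lce3 columns carry a dot in every row, and the Lce1 columns carry 10 dots with mustard alone, 1 with dimercaprol, 0 with octylhomovanillamide and 5 with indomethacin; S100a1, S100a3, S100a4, S100a6, S100a13, S100a14, S100a16, Casp14, Lor and Lce1f change sign in the mustard row without rescaling.

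The pretreatments were then compared with each other, without the mustard ears, by an F-test over the 3 groups. It called 15 of 42 members against 2.46% of all probe sets: 8 of the 9 Sprr genes, the 4 Lce3 genes, Rptn, S100a10 and Tgm1. The count was 10 to 15 when each ear was left out, 10 without rescaling and 12 with array brightness as a covariate. For these settings the share of all probe sets called by the F-test was not computed, so the counts cannot be set against it. Dimercaprol ears were lower than indomethacin ears for 14 members and higher for 0, against 1.7% and 2.23% of all and 3.93% in either direction. Sprr2f differed by -3.54 ± 0.57 (adjusted p = 0.000293, limma), Lce3a by -3.44 ± 0.62 (0.000698), Sprr2i by -2.99 ± 0.50 (0.000382), Lce3b by -2.59 ± 0.41 (0.00164) and Rptn by -2.07 ± 0.35 (0.000469). Octylhomovanillamide ears were lower than indomethacin ears for 6 members and higher for 0, against 0.283% and 0.278% of all and 0.561% in either direction, namely Sprr2f (-2.69), Sprr2i (-2.22), Sprr2j-ps (-2.19), Rptn (-1.62), Sprr3 (-1.26) and S100a10 (-0.66).

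Dimercaprol and octylhomovanillamide ears differed for none (0) of the members by limma, against 0% of all probe sets, with 1 member at an unadjusted p under 0.05 (share of all not computed). Lce3a differed by -1.22 ± 0.65 between them (adjusted p = 0.999), which does not show that these 2 groups are alike. Amounts were not matched between the 3 drugs, so each difference is between treatments as given.

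Within a pretreated group the same ears tended to be high for many members. Of the 14 Sprr, Lce3 and Rptn genes, the dimercaprol ears of animals 8 and 12 were among the 2 highest of 6 for 13 and 12 genes. The octylhomovanillamide ear of animal 29 was the highest of 5 for 14 genes, and the indomethacin ear of animal 18 the lowest of 6 for 13. Scaling gives 1 factor to all genes of an ear on an array, and these genes share their ears, so their order is not independent between genes. Rptn with dimercaprol was at 156, 367 and 972 as lowest, median and highest, with octylhomovanillamide at 571, 437, 1062, 840 and 184, and with indomethacin at 900, 1944 and 2294. The highest dimercaprol ear lay above only the lowest indomethacin ear.

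Ears without mustard served to ask what the drugs and the vehicle did alone. Of the 37 members with an array A probe set, dimercaprol, indomethacin and octylhomovanillamide each changed 0 against ethanol by limma, as for 0% of all probe sets. At an unadjusted p under 0.05 there were 0, 5 and 4 members. The share of all probe sets at that threshold was not computed, so no conclusion is drawn from these counts. The differences ran from -0.24 to 0.99 with dimercaprol, from -0.48 to 0.82 with indomethacin and from -0.79 to 1.23 with octylhomovanillamide, on the log2 scale. With 3 ethanol ears small differences could not be seen. Each of these ears came from an animal whose other ear had a drug, and the fit took ears as independent.

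Methylene chloride ears differed from naive ears for 4 of 37 members, 1 higher and 3 lower, against 17.2% of all probe sets (5.1% higher and 12.1% lower). These ears came from separately numbered animals, so animal set and vehicle cannot be told apart. Flg was at 1357, 1740 and 2390 in the 3 naive animals and at 1849 to 4158 in methylene chloride ears, a difference of 0.63 ± 0.19 (adjusted p = 0.0153, limma). S100a5 differed by -0.79 and Sprr2k by -0.83. Tgm3, read here from its dimmer array A probe set, differed by -0.66, close to the threshold (adjusted p = 0.0499, limma). Sprr2k was at 510, 345 and 524 in naive animals and at 141 to 408 in methylene chloride ears, with overlapping ranges. Leaving out any 1 of the naive animals left 1 member called, with the share of all probe sets in those fits not computed. Without rescaling 1 member was called, against 3.24% of all probe sets.

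Some of the genes that mustard induced most were also variable in ears without it, and others were steadier. The SD of the log2 value across methylene chloride ears was 1.38 for Sprr1b, but 0.27 for Lce3b and 0.44 for Rptn. Lce3a and Sprr2f were dim in these ears, so part of their spread may lie near the floor of the arrays. Sprr1b was at 397, 1853 and 3485 in the 3 ethanol ears, and its lowest, median and highest were 595, 926 and 4066 in the 5 naive ears and 1204, 2468 and 6194 in the 4 dimercaprol ears without mustard. The highest of these lay above the mustard ear of animal 36, at 2626, and below the other mustard ears, whose lowest was 11762. Lce3a was at 28.9, 225 and 382 with ethanol, at 42.1, 135 and 267 in naive ears and at 107, 293 and 588 with indomethacin alone, against 14.5 to 147 in methylene chloride ears. Sprr2f was at 34.2 to 261 in these naive, ethanol and drug ears, below every mustard ear. Sprr2h and Lce3c reached 2245 and 1866 with dimercaprol alone, above the mustard ear of animal 36 at 1556 and 1436. None of these differences between animal sets was tested, apart from methylene chloride against naive ears. Sprr1b, Lce3a, Sprr2f, Sprr2h and Lce3c were not called in that comparison.

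S100a3, known from the hair cuticle, showed the widest S100a spread after S100a7l2 and no call in any comparison. Its signal was at 149, 315 and 2032 as lowest, median and highest in methylene chloride ears, and at 385, 302, 322, 1459 and 336 in the mustard ears of animals 1, 3, 5, 36 and 37. Only the mustard ear of animal 36 was high. The summed signal of 11 hair follicle markers on array A, keratins and other genes of growing hair, ran from 848 to 17100 in methylene chloride ears. By the mean log2 value of those markers the 21 ears fell into a cluster of 10 and one of 11, with 149 to 281 for S100a3 in the first and 315 to 2032 in the second, without overlap. Within the 11 ears, S100a3 followed the markers, with Pearson's r = 0.956 (p = 1e-05, the smallest that 100000 permutations can give; adjusted p = 0.00084) and Spearman's rho = 0.955 (permutation p = 3e-05, adjusted p = 0.00252). Without the 2 ears farthest from the median r was 0.947. Within the 10 ears r was 0.331 (permutation p = 0.344), and 0.737 without the 2 ears farthest from the median. Of the 84 relations computed, 42 members in both clusters, S100a3 in the 11 ears was the only one (1) past 0.05 after adjustment. Each ear's values come from the same array and the same scaling.

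**Figure D5:**
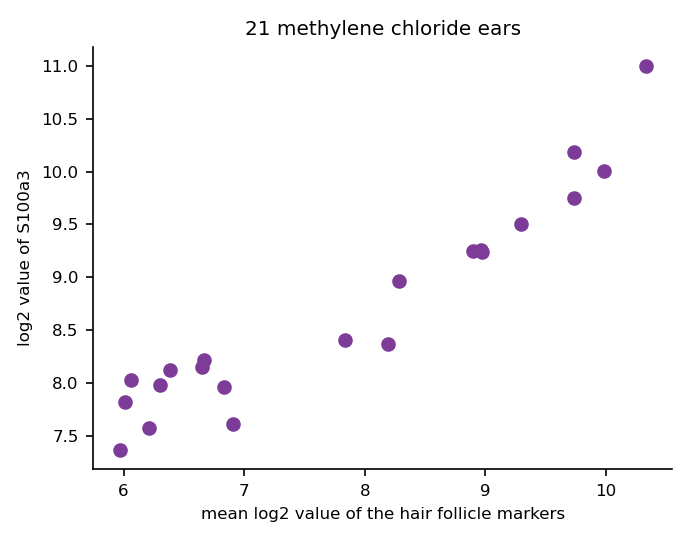
Log2 value of S100a3 (vertical axis) against the mean log2 value of 11 hair follicle markers (horizontal axis) in the 21 methylene chloride ears, 1 point an ear. The 11 ears with marker means from 7.84 to 10.3 climb together, and the 10 ears with means from 5.97 to 6.91 lie in 1 low group.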

How the data were processed

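Affymetrix arrays MOE430A and MOE430B (array A and array B) measured total RNA of mouse ear skin, with 64 A arrays and 43 B arrays. The deposited values are signal intensities on a linear scale, made with MAS5 per the submitters' processing notes; its version and scaling are not given in the sources used here. Genes were named from GEO's platform annotation, and checking its symbols against RefSeq changed 0 of them. Signals were divided by their array's 2% trimmed mean and multiplied by 500, then 16 was added and log2 taken. limma 3.58.1 (lmFit, then eBayes with trend) in R 4.3.3 was fitted on every probe set of an array, with 2-sided p-values adjusted over the array by Benjamini-Hochberg at 0.05. The mustard series was 1 fit of 5 groups per array. Naive ears were averaged per animal. The code was tested on simulated data.

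The members and gene lists were chosen with earlier results of these data known. Values are given ear by ear for the members with the largest differences between groups and for the envelope precursors and enzymes. Labels give left and right ears of numbered animals, so ears of an animal are paired, but only in part. Animals 1, 3, 36 and 37 gave both a methylene chloride ear and a mustard ear. Animal 5 with mustard and animals 6, 12, 16 and 21 with a drug and mustard gave no methylene chloride ear. Most other methylene chloride ears came from animals whose right ear had a drug and mustard. Each ethanol ear came from an animal whose right ear had a drug without mustard. The main fit left out this pairing and took ears as independent. Consensus correlations of ears of an animal in the mustard series came to 0.108 (array A) and 0.0623 (array B), and animal as a random block was an alternative. P-values measure the spread between ears. The number of arrays limits the precision. Promoters came from RefSeq (GRCm38.p6), matched by Entrez gene number. The promoters of a chromosome that holds no member were left out of the counts. Alternatives were no rescaling, quantile normalization, another pseudocount, a minimum mean signal of 100, the Gapdh ratio or array brightness as a covariate, other probe set choices and leaving out ears.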

Additional observations from a re-analysis of the deposited data

Results flagged for a closer look

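Within 20 members and the 4 groups with mustard, 80 sets of ears in all, 11 ears lay far from the rest of their group on the log2 scale by Dixon's test. Chance marks about 1 in 20 sets. The mustard ear of animal 36 was the low one for 6 genes, with a signal of 325 for Lce3a, 1436 for Lce3c, 2626 for Sprr1b, 429 for Sprr2f, 1556 for Sprr2h and 468 for Sprr2i. The indomethacin ear of animal 18 was the low one for Sprr1b (6343), Sprr2h (3721) and Sprr2k (399). The dimercaprol ear of animal 12 was the high one for Ivl, at 7721, and the octylhomovanillamide ear of animal 28 for Hrnr, at 6764. The genes of 1 ear share its array, so these are not independent.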

How the results depend on the processing

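Without rescaling of the arrays, 9 called differences turned sign. Against methylene chloride, mustard then gave -0.13 for S100a6, -0.081 for Casp14, -0.090 for S100a16 and -0.25 for S100a14. Against mustard, dimercaprol gave 0.22 for S100a10, 0.53 for S100a6 and 0.61 for S100a14, and octylhomovanillamide 0.16 for S100a6 and 0.42 for S100a14. The median of all probe sets then lay at -0.25 for mustard against methylene chloride and at 0.36, 0.26 and 0.34 for dimercaprol, indomethacin and octylhomovanillamide against mustard. Indomethacin changed 18 members against mustard without rescaling, against 14.7% of all probe sets. Methylene chloride ears then differed from naive ears for 1 (3.24% of all), against 2 with quantile normalization (11.7%) and 2 with array brightness as a covariate (10.9%). That covariate was chosen after seeing the data, and with it dimercaprol and octylhomovanillamide each changed 0 members against mustard (1.32% and 0.0552% of all). With the Gapdh ratio they changed 11 and 0, against 4.46% and 0.102% of all. Without the mustard ears of animals 5 and 37 they changed 6 and 0, against 4.18% and 0.314%. The cause was not tested. Leaving out each ear gave 30 to 35 members for mustard against methylene chloride (20.1% to 30.3% of all probe sets). Against mustard it gave 14 to 28 for dimercaprol, 0 to 5 for indomethacin and 6 to 26 for octylhomovanillamide. When the ear left out was a mustard ear, the shares of all were 9.86% to 21%, 0.0398% to 5.17% and 4.05% to 15.4% in that order. Against methylene chloride, leaving out each ear gave 5 to 10 for dimercaprol, 20 to 26 for indomethacin and 8 to 12 for octylhomovanillamide, and 1 in each case for naive ears. The shares of all probe sets were not computed for the fits against methylene chloride that left out a drug ear or a naive animal. With animal as a random replicate block the count for mustard against methylene chloride was 36, against 27.3% of all probe sets. The counts of calls in the other comparisons then moved by less than 1.5 times. Loricrin lay near the top of the arrays' range, which limits what a change in it could show.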

Other observations

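Members differed in how steady they were across the 21 methylene chloride ears. The SD of the log2 value was 0.14 for S100a16 and Lce1a2, 0.15 for S100a10 and S100a14 and 0.18 for Lor, against 1.38 for Sprr1b, 1.01 for S100a7l2, 0.99 for S100a3, 0.92 for Lce3f and 0.90 for Lce3c. The 11 Lce1 genes lay between 0.14 and 0.27, apart from Lce1c at 0.64. This is a description of these ears, with no test.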
